A study of Mus musculus with 577 samples.

Results

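The 15 mouse oocytes described here were isolated singly from ovary sections by laser capture microdissection (LCM), lysed by DRaqL and amplified with the SMART-Seq v4 kit, and were chosen by the kit, lysis and follicle class in their labels, out of 577 samples. The labels placed 6 of them in primary follicles and 9 in secondary to early antral follicles, called here the primary and the later stage. DRaqL is a lysis with sodium deoxycholate that is then quenched with Triton X-100 and albumin, and it stood beside oocytes that had been amplified by DRaqL-SC3-seq, by SMART-Seq v4 under titles that do not name DRaqL, and by DRaqL-Protease-Smart-seq2 after formalin fixation. The ovaries came from 8-week-old females, without any treatment or genetic change named in the labels, and were frozen in polyvinyl alcohol, cut at 15.0 μm, fixed in alcohol and stained with cresyl violet. The label of 1 of the 15, primary replicate 6, names formalin fixation in its treatment text, unlike the other 14, and counts without this oocyte are given beside the main ones. No label names the mouse behind an oocyte, and the study states that the amplification methods it compared, this kit among them, shared a source ovary. Each stage was therefore counted as 1 sample, no test was run, and the spread given is that over cells of what the study describes as a single ovary, not over animals. All 6 primary libraries were pooled under library number 8 and all 9 later ones under number 7, so that the stage and the pool cannot be told apart.

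A mouse oocyte enters growth when its primordial follicle becomes a primary follicle, and it enlarges through the secondary and antral stages while it is held in meiotic prophase. Its growth is started by germline transcription factors such as Sohlh1, Sohlh2 and Figla, and it then stores transcripts and proteins for ovulation, fertilization and the early embryo, since transcription ceases near the end of growth. The stored products include those of oocyte gene families whose members often lie in chromosomal clusters, among them Obox, which encodes homeobox proteins, and the Oogenesin genes (Oog), which encode leucine-rich repeat proteins of the PRAME family.

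Obox1 and Oog1 mark the later stage and Sohlh1 the earlier one, and their promoters are shown first since these genes open the comparison. Each sequence is the RefSeq window of 250 bases before and 50 bases after the annotated start in GRCm38.p6, written on the strand of the gene, and capitals mark each E-box, the letters CANNTG that basic helix-loop-helix proteins such as SOHLH1 and FIGLA can bind. Obox5 and Obox7 were added because they are close relatives of Obox1, and Bmp15 because it encodes a growth factor of the oocyte.

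Oog1: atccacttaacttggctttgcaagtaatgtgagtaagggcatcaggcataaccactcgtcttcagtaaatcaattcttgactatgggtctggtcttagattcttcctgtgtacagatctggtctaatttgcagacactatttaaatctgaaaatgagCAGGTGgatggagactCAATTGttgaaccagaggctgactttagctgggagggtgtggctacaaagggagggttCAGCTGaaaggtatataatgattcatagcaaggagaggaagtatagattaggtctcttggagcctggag
Obox1: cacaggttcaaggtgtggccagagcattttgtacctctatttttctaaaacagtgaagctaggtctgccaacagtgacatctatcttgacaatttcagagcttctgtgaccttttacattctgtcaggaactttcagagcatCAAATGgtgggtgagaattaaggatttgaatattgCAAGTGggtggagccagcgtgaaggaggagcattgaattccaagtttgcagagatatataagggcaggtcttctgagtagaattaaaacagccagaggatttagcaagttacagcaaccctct
Obox5: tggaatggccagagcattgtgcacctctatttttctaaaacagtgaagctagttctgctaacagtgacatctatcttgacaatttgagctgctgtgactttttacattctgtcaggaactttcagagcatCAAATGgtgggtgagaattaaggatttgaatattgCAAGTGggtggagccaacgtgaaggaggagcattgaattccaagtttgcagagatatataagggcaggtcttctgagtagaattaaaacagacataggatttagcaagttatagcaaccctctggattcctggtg
Obox7: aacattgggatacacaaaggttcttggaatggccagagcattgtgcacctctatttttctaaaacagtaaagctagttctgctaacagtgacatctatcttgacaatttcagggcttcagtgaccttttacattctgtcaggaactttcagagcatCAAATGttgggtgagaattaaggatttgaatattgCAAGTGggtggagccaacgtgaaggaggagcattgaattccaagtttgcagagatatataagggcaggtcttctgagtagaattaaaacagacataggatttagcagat
Bmp15: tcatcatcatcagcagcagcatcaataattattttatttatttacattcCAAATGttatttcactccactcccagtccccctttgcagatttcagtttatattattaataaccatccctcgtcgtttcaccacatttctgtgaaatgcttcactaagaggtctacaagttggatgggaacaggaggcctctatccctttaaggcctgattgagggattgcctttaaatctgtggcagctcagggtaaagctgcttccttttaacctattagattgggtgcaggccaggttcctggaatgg
Sohlh1: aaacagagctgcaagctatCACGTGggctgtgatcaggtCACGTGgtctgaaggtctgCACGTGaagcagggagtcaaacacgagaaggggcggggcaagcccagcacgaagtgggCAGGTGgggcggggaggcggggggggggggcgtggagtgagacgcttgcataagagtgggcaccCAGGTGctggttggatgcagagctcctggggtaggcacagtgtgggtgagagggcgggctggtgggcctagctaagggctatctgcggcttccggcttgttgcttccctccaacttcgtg

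These windows lie at chr12:87602415-87602714 (Oog1, plus strand), chr7:15547007-15547306 (Obox1, plus), chr7:15750120-15750419 (Obox5, plus), chr7:14659458-14659757 (Obox7, plus), chrX:6320675-6320974 (Bmp15, minus) and chr2:25847199-25847498 (Sohlh1, minus). The Obox1 start in RefSeq falls within the longer Obox1 span of the Ensembl annotation, which also covers Obox2. Each Obox window held 2 E-boxes whose first bases were 35 bases apart, at -108 and -73 in Obox1, -120 and -85 in Obox5 and -94 and -59 in Obox7, counted from the start. Laid side by side without gaps at the best shift, the Obox1 window matched that of Obox7 at 268 of 286 aligned bases (93.7%). It matched that of Obox5 at 225 of 288 (78.1%). An inserted or missing base puts the rest of a window out of step, so such figures can understate resemblance. The Oog1 window held E-boxes at -93, -77 and -19 and matched the window of Gm2042, a related gene on the same chromosome, at 299 of 300 bases. Bmp15 had 1 E-box at -201 and Sohlh1 had 5. Of 31 genes looked up, 26 had a window and 24 of these held CANNTG on either strand, beside 72.3% of 32851 RefSeq promoters of the same length. The 31 were picked by hand, many for a large stage difference in either direction, and include near-copies of each other. The 2 figures therefore cannot show whether E-boxes are more frequent in these genes. A match of letters describes the sequence and is not a measured binding site.

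The files held the number of reads counted on each gene. Reads on protein-coding genes numbered between 467352 and 3278505 per primary oocyte, with a median of 744051, and between 133799 and 2472344 per later oocyte, with a median of 931188. Later replicates 1, 2 and 7 were the shallowest of their stage. Primary replicate 1 held 3278505 of the 6760133 protein-coding reads of its stage, and so weighs most on the primary side of folds of summed reads. Values are given as RPM, which is reads per 1000000 protein-coding reads of the library, and differences are those between stage means of log2 (RPM+1), later minus primary, a scale that understates the difference of low genes. A gene was assessed when this value exceeded 4 in at least 1 of the 15 oocytes, and was counted past the fold when the stage means differed by more than 1.8. Intervals on folds of summed reads are exact at 95% and, like the limit of 3 reads used for a stage without reads, cover counting error alone, since amplified reads carried no molecular identifiers.

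The oocyte label was checked against markers. The summed RPM of 12 oocyte markers ranged from 5606 to 18393 in the primary stage and from 16113 to 32616 in the later one, and its median was 654 in 39 granulosa cells made with the same kit. The summed RPM of 14 granulosa markers was 413 to 1659 and 974 to 2154 in the 2 stages and had a median of 9014 in the granulosa cells. Of the 12 granulosa markers that were assessed, 3 were higher past the fold in the later stage and none was lower. Without primary replicates 2 and 5, 3 were higher and 1 lower. These counts stand beside 20.8% higher and 9.70% lower over all assessed protein-coding genes. The median difference of the markers was 1.35, and Foxl2, Inha and Kitl lay below 0, at -1.51, -1.02 and -0.16. Amh and Inhbb did not reach the level of assessment. Serpine2 had 36.4 to 167 RPM in primary and 329 to 784 RPM in later oocytes, and was the only marker of the list past the fold without overlap. Markers of theca and stroma summed to at most 10.7 RPM in the later oocytes, but to 842 RPM in primary replicate 5 and 340 RPM in primary replicate 2, and haemoglobin reads reached 1688 RPM in primary replicate 5 alone. Macrophage markers stayed at or below 3.24 RPM. The part of these stray reads in the differences was not tested. Counts without primary replicates 2 and 5 are given below, for all genes and for some of the lists that they moved.

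Across 12926 assessed protein-coding genes, 2688 (20.8%) were higher and 1254 (9.70%) lower past the fold in the later stage. Ratios of summed reads, which weigh deep libraries such as primary replicate 1 most, turned this balance, with 1893 higher and 1999 lower. Dividing by reads of the synthetic spike-in RNA (ERCC) gave 9798 higher and 86 lower. The values of all later oocytes lay above those of all primary ones for 840 of the higher genes (6.50% of those assessed), and below for 368 of the lower (2.85%). Without primary replicate 6, the counts were 2947 higher and 1252 lower. Leaving out later replicates 1, 2 and 7 raised the higher genes without overlap to 1512, and leaving out primary replicates 2 and 5 raised the lower ones without overlap to 748. In a principal component analysis of these genes, the first component held 35.5% of the variance and ran from -219 to -81.9 in primary and from 46.5 to 105 in later oocytes. The second, with 14.4%, set primary replicate 2 apart at 217. Pairs of oocytes within the later stage correlated at 0.660 to 0.938 over genes, and pairs within the primary stage at 0.512 to 0.764. Pairs between stages correlated at 0.361 to 0.649. By this measure the primary libraries were the more varied set. The part of depth, spike-in share and stray reads in this was not tested.

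Most lower genes depended on the scaling. ERCC RNA had been added to the lysis buffer, and ERCC reads per 100 protein-coding reads ranged from 2.98 to 34.7 in primary and from 0.379 to 5.09 in later oocytes. The median oocyte held 12.7 protein-coding reads per ERCC read in the primary stage and 135 in the later stage, a ratio of 10.6. Dividing by ERCC reads in place of protein-coding reads moved the median protein-coding gene from 0.20 to 2.74, and 575 of the 1254 lower genes remained below 0 on that scale. TMM scaling put the median gene at 0.42. The amount of RNA in the captured section, the efficiency of capture and the library pool all enter the ERCC ratio and cannot be told apart. Unless ERCC scaling is named, lower and higher below refer to the share of protein-coding reads. Counts in the lists of protein-coding genes below stand beside 20.8% higher and 9.70% lower over all assessed protein-coding genes.

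**Figure D1:**
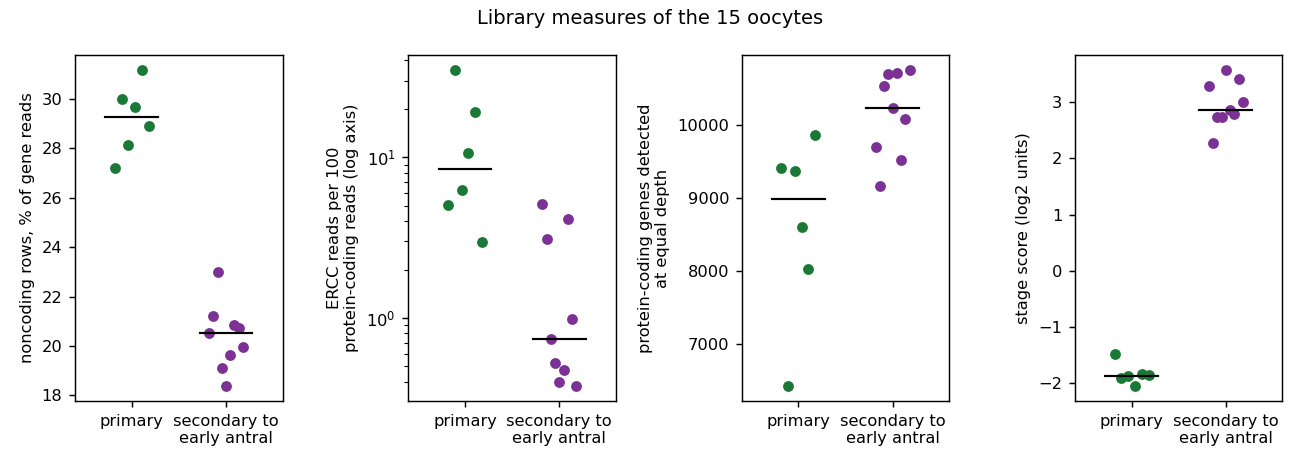
Library measures of the 15 oocytes, 1 point per oocyte, with primary oocytes at left and secondary to early antral oocytes at right in each panel and black bars at the medians. Noncoding shares (27.2 to 31.1% and 18.4 to 23%) did not overlap between the stages, whereas ERCC shares (2.98 to 34.7 and 0.379 to 5.09 per 100 protein-coding reads) did.

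Transcription factors of the early oocyte were split between genes that were far lower in the later stage and genes with like levels in both. Of 8 assessed factors, 3 were lower without overlap (Sohlh1, Sohlh2 and Figla), Taf4b alone was higher past the fold, though not without primary replicates 2 and 5, and Nobox, Lhx8, Foxo3 and Tbpl2 lay between the thresholds. Sohlh1, a basic helix-loop-helix factor of early germ cells, had 221, 448 and 622 RPM as lowest, median and highest in primary oocytes and 0, 1.49 and 19.3 RPM in later ones, with 4 later oocytes at 0. Its summed reads were 101-fold lower (76.1 to 138), the means were 8.65 ± 0.55 (SD, n = 6) and 1.55 ± 1.77 (SD, n = 9), and the difference was -7.11, or -4.44 by ERCC scaling. Its partner Sohlh2 had 19.3, 64.1 and 138 RPM against 0, 2.15 and 7.47 RPM.

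Figla, which drives zona pellucida genes, was reduced but still present in every later oocyte, with 393, 520 and 631 RPM against 40.6, 82.2 and 247 RPM. The 2 later oocytes with most Figla, replicates 7 and 2, had 247 and 215 RPM, and the fold of summed reads was 6.25 (5.80 to 6.74). Its difference of -2.41 turned to 0.70 by ERCC scaling, so that its lower share went with no lower count per ERCC read. Nobox, a homeobox factor required for early follicle growth, had 149 to 603 RPM and 176 to 665 RPM, with wide overlap. The receptor Kit, which receives the granulosa signal that activates growth, had 64.2, 242 and 434 RPM against 56.0, 121 and 152 RPM. None of the 6 assessed members of the Kit pathway passed the fold in either direction, and their median difference of -0.05 became 2.85 by ERCC scaling.

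Genes of meiotic prophase were divided likewise. Of 17 assessed, 5 were lower and 2 higher past the fold, 4 and 1 of these without overlap, and the median of -0.74 turned to 0.52 by ERCC scaling. Without primary replicates 2 and 5, 8 were lower and 1 higher, at a median of -1.57. The list summed to 2229 to 2850 RPM in primary and 852 to 1256 RPM in later oocytes. Sycp3, an axial element of the synaptonemal complex, had 450, 738 and 1201 RPM against 22.4, 70.6 and 149 RPM. Syce1, of the central element, had 92.9, 187 and 347 RPM against 0, 1.07 and 14 RPM, a fold of 59.0 (41.4 to 87.2). None of its reads were found in 4 later oocytes. Syce1 was assessed only through the primary stage, so its direction follows in part from that filter.

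Smc1b, a cohesin subunit that holds sister chromatids together in meiosis, had 454, 645 and 1461 RPM against 22.5, 54.5 and 97.2 RPM. Sycp1, the transverse filament, had 66.3, 180 and 408 RPM against 0, 20.2 and 56.0 RPM, and later replicate 1 was the one at 0. By ERCC scaling the differences of Sycp3, Smc1b and Sycp1 shrank to -0.41, -0.69 and -0.28, while Syce1 kept -3.68. Syce2, also of the central element, went the other way, with 56.2, 193 and 485 RPM in primary and 561, 717 and 895 RPM in later oocytes.

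The widest differences upwards belonged to oocyte gene families that were near or at 0 in the primary stage. All 5 assessed Obox genes were higher past the fold, 4 without overlap, at a median difference of 9.08 beside 0.20 over all protein-coding genes. Obox6 and Obox8 did not reach the level of assessment. Here and in the lists below, genes near 0 in the primary stage were assessed only through the later one. The direction of such genes follows in part from that filter. The Obox family summed to 0 to 5.54 RPM and 1369 to 6797 RPM. Obox1 had 0, 0.305 and 2.14 RPM in primary and 823, 2371 and 3581 RPM in later oocytes, and later replicate 2 was the lowest. The fold of summed reads was 3979 (1554 to 14605), and the means were 0.60 ± 0.72 (SD, n = 6) and 11.03 ± 0.64 (SD, n = 9). Obox2 lies inside the annotated span of Obox1 (chr7:15388948-15556866), so that reads of these neighbours are not separated with certainty.

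Obox5 (chr7:15750131-15759800) had no read in any primary oocyte and 125, 618 and 1131 RPM in the later ones, at least 1447-fold higher against a limit of 3 reads over the primary stage. Obox7 had 0 to 1.11 RPM and 12.9, 126 and 224 RPM. Later replicate 2 was the lowest for all 3 of these genes. Obox3 overlapped between the stages, at 0 to 0.305 RPM and 0 to 27.1 RPM.

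Oog1 (chr12:87602688-87608850) had no read in any of the 6 primary oocytes and 553, 961 and 1373 RPM in the later ones, at least 2416-fold higher. Gm2042, its near-identical neighbour, had 0 RPM in the primary stage and 595, 1054 and 1603 RPM in the later stage, and reads of the pair are not separated with certainty. Oog2 had 0, 3.14 and 8.86 RPM against 357, 546 and 1129 RPM. Oog3 was at 0 in 4 primary oocytes but at 99.5 RPM in primary replicate 3, still below the 260 to 987 RPM of the later stage.

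The Oosp genes encode oocyte-secreted proteins, and all 3 were higher without overlap. Oosp1 had 0 to 5.54 RPM and 514, 1145 and 1624 RPM, Oosp2 had 0 to 6.65 RPM and 404, 575 and 784 RPM, and Oosp3 had no primary read and 293, 630 and 1012 RPM. The Oog and Oosp genes together counted 7 of 7 higher without overlap, with a median of 8.46 and summed levels of 1.60 to 106 RPM and 2681 to 6421 RPM.

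The F-box genes of the Fbxw family, which carry WD repeats and are oocyte-enriched, were higher throughout but for 1 member. Of 13 assessed, 12 were higher without overlap, all of them on chromosome 9, and the exception, Fbxw17, lies on chromosome 13 and had 0 to 70.5 RPM and 5.34 to 23.3 RPM. Fbxw14 had the largest difference of all assessed protein-coding genes named by the rule, 10.90, with 0, 1.96 and 6.71 RPM against 3012, 4725 and 6602 RPM and a fold of 1127 (779 to 1696). Fbxw24 had 0, 8.81 and 52.5 RPM against 1841, 2803 and 3586 RPM. Fbxw19 had reads in 1 primary oocyte and 572, 634 and 822 RPM in the later stage, where its SD over cells was 0.19 on the log2 scale. The family summed to 6.42 to 446 RPM in primary and 11008 to 18358 RPM in later oocytes.

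**Figure D2:**
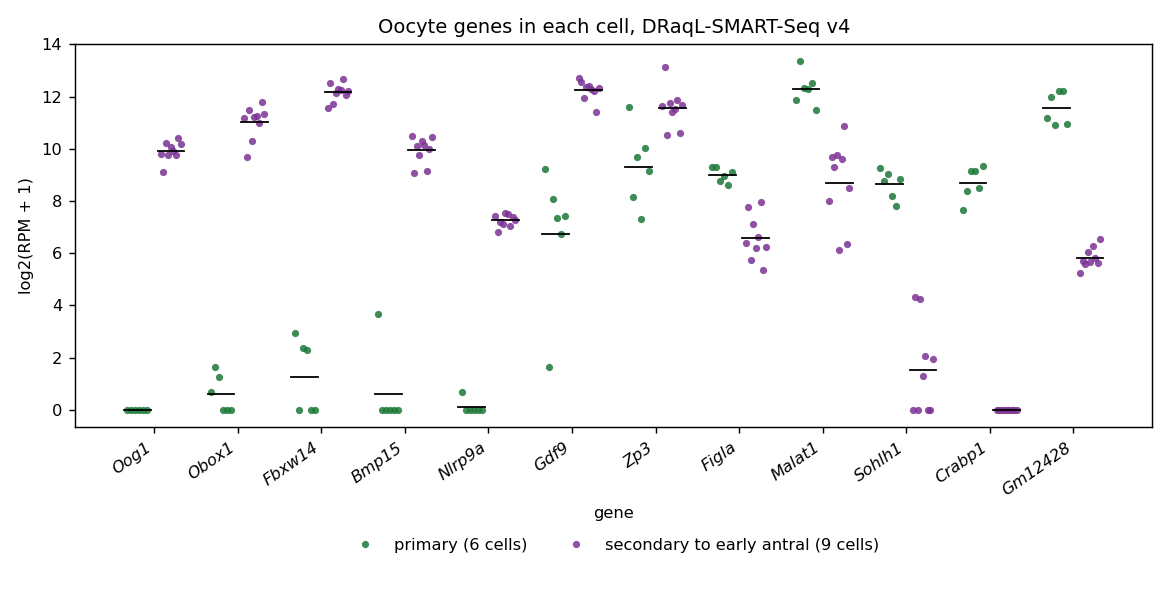
Levels of marker and growth genes in each oocyte, as log2 (RPM+1), with 6 primary and 9 secondary to early antral oocytes as points and black bars at the stage means. Oog1 sits at 0 in all 6 primary oocytes and Sohlh1 is above all later oocytes, while Zp3 overlaps between the stages.

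Several of these families form clusters in which most assessed genes were higher, although Oog1 lies on another chromosome than Oog2 to Oog4. Again, genes near 0 in the primary stage were assessed only through the later one. Between 109139447 and 109746089 on chromosome 9 (GRCm38), all 12 assessed Fbxw genes and both other assessed genes, the pseudogene RP24-187P11.4 and the snRNA gene Gm25484, were higher past the fold. Within 500 kb on either side of the cluster, 6 of 24 assessed genes were higher and 3 lower. On chromosome 4, from 143437164 to 144196934, Oog2, Oog3 and Oog4 and 8 of 11 other assessed genes were higher and none lower, against 2 higher and 1 lower of 14 in the flanks. Among the 8 was Gm13023, which had 0 to 0.305 RPM in primary and 518, 832 and 979 RPM in later oocytes. The 5 assessed Obox genes lie between 14659496 and 15759800 on chromosome 7, where 1 of 2 other assessed genes was higher, as was 1 of 12 in the flanks. The 3 Oosp genes lie between 11647279 and 11711874 on chromosome 19 with no other assessed gene among them, and 2 of 11 flanking genes were higher.

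On chromosome 12, from 105146014 to 105222793, all 6 genes of the Tcl1 cluster were higher without overlap, at a median of 5.12, and 3 of 9 flanking genes were higher. Tcl1, a coactivator of the kinase AKT, was already present in primary oocytes, with 85, 345 and 494 RPM against 1226, 1398 and 2183 RPM. Its neighbour Tcl1b4 was close to absent there, with 0 to 0.305 RPM against 48.2, 67.7 and 106 RPM. Since neighbouring genes of these families resemble each other in sequence, their reads are not separated with certainty.

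The growth factors that the oocyte sends to the granulosa cells appeared in the later stage at different starting levels. All 6 assessed were higher past the fold, 4 without overlap, with a median of 6.75 and summed levels of 2.14 to 626 RPM and 4654 to 8886 RPM. Gdf9, which promotes granulosa growth from the primary stage on, had 2.14, 168 and 604 RPM against 2701, 5100 and 6749 RPM, a fold of 13.1 (12.6 to 13.7). Primary replicate 2, which had the highest ERCC share, was the oocyte at 2.14 RPM. Bmp15, its close relative on the X chromosome, had reads in primary replicate 1 alone (11.6 RPM) and 534, 1105 and 1457 RPM in the later stage, a fold of 204 (149 to 289). Primary replicate 1 was also the deepest primary library.

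Fgf8, which acts with BMP15 on glycolysis in cumulus cells, had no read in the primary stage and 135, 263 and 427 RPM in the later stage, at least 618-fold higher. Tgfb2 had 0 to 9.97 RPM and 293, 334 and 500 RPM. Bmp6 and Bmp5 overlapped between the stages, Bmp5 because later replicate 2 had none of its reads while the other 8 had 32.9 to 156 RPM.

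Zona pellucida genes, which encode the egg coat, were abundant from the primary stage. Zp2 had 1716, 3246 and 5757 RPM against 1218, 2353 and 5709 RPM, which overlapped throughout. Zp3, the one member past the fold, had 156, 697 and 3126 RPM against 1487, 3184 and 8934 RPM, with primary replicate 1 inside the later range. Zp1 had 212, 340 and 879 RPM against 659, 1179 and 2771 RPM. Among the other genes of the fertilizable surface, Izumo1r, the receptor for sperm IZUMO1, had 0, 21.8 and 96.7 RPM against 316, 494 and 755 RPM. Cd9, needed for gamete fusion, had 17.6 to 413 RPM and 58.5 to 389 RPM. Cd81 went the other way, with a difference of -3.83, or -1.18 by ERCC scaling. Of the 7 assessed surface genes, zona genes included, 3 were higher and 1 lower past the fold. Without primary replicates 2 and 5, these counts were 2 and 1.

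The subcortical maternal complex is a store of proteins under the oocyte membrane that the early embryo requires, and transcripts of some of its members had like levels in both stages. Of 7 assessed members, 4 were higher without overlap and 3 lay between the thresholds, at a median of 2.94, or 1.84 without primary replicates 2 and 5. Ooep had 1697, 3024 and 6238 RPM against 2631, 3960 and 6445 RPM, and Padi6 had 998, 1727 and 4135 RPM against 986, 1852 and 5577 RPM. Zbed3 had 21.4, 124 and 294 RPM against 2983, 3915 and 5099 RPM, and Khdc3 had 59.9, 160 and 425 RPM against 1014, 2120 and 4417 RPM. Among the NLRP family, whose member Nlrp5 belongs to this complex, 10 of 12 assessed genes were higher past the fold and 8 did not overlap. Nlrp5 itself had 124, 588 and 1682 RPM against 361, 700 and 1630 RPM, whereas Nlrp9b had 0 to 2.14 RPM against 112, 275 and 384 RPM.

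Genes that store, silence and later degrade maternal mRNA were higher in 12 of 19 and lower in none, at a median of 1.98. Zar1, which assembles stored mRNA around mitochondria, had 0, 202 and 347 RPM against 1692, 2171 and 2867 RPM. Btg4, an adaptor of the deadenylase that clears maternal mRNA, had 8.56, 81.6 and 135 RPM against 743, 1047 and 1892 RPM. The RNA-binding protein Ybx2, in contrast, had 203, 240 and 281 RPM against 145, 226 and 291 RPM.

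Of 16 assessed genes of meiotic arrest and maturation, 10 were higher and none lower, with a median of 2.90. Mos, the kinase that keeps the egg arrested at metaphase of the second division, had 0, 61.7 and 336 RPM against 703, 1281 and 1797 RPM. Gpr3, the receptor that maintains prophase arrest, had 0 to 0.610 RPM against 9.64, 47.7 and 83.3 RPM. Cdk1, the kinase that drives entry into division, had 22.2, 81.9 and 123 RPM against 37.4, 48.2 and 105 RPM.

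Chromatin genes of the oocyte differed by member. Dnmt1, the maintenance DNA methyltransferase, had 0, 257 and 704 RPM against 2373, 3532 and 4809 RPM. Dnmt3l, the cofactor needed for methylation of imprinted genes, had 0, 0.691 and 3.97 RPM against 32.1, 65.4 and 149 RPM, a fold of 29.8 (17.9 to 53.5). Dnmt3a, the methyltransferase it assists, had 63.1, 84.9 and 209 RPM against 158, 200 and 248 RPM, a difference of 1.02 that stayed under the fold. Tet3, the oxidase of the zygote, had 1.31, 41.4 and 113 RPM against 299, 784 and 1065 RPM, while Tet2 had 0, 44.8 and 136 RPM against 0, 0.497 and 16.8 RPM. Over all 12 assessed DNA methylation genes, 5 were higher and 1 lower, or 4 and 1 without primary replicates 2 and 5. H1foo, the linker histone of oocytes, had 154, 329 and 489 RPM against 3423, 5791 and 7218 RPM.

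Survival genes were mixed, with 3 higher and 3 lower of 10, or 2 and 4 without primary replicates 2 and 5. Bcl2l10, an anti-apoptotic member of the BCL2 family, had 0, 15.5 and 38.5 RPM against 1114, 2001 and 3214 RPM. Bax, its pro-apoptotic relative, had 657, 914 and 1551 RPM against 130, 213 and 325 RPM, without overlap, yet its difference of -2.23 became 0.89 by ERCC scaling.

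Among 18 assessed genes of the piRNA and small RNA pathways, 6 were higher and 2 lower. Without primary replicates 2 and 5, 5 were higher and 3 lower, and the median moved from 0.65 to 0.16. Over all assessed protein-coding genes, 20.8% were higher and 9.70% lower. Mov10l1, a helicase of piRNA processing, had 77.0, 243 and 441 RPM against 0, 10.1 and 33.5 RPM. Tdrd12 went the other way, with 0, 0.458 and 35.3 RPM against 113, 128 and 214 RPM. In the list of connexins and adhesion molecules, Gja4, the connexin of the oocyte's gap junctions with granulosa cells, had 41.7, 164 and 311 RPM against 715, 1016 and 1513 RPM. Epcam, an epithelial adhesion molecule, had 78.6, 278 and 451 RPM against 1.07, 3.21 and 18.7 RPM, a fold of 80.1 (55.9 to 119), with a difference of -5.72, or -2.92 by ERCC scaling.

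The remaining lists are also read beside the shares over all assessed protein-coding genes, 20.8% higher and 9.70% lower. Germ cell identity genes were higher in 3 and lower in none of 8, factors that the oocyte leaves to the embryo in 5 and none of 11, and oocyte chromatin genes in 6 and none of 12. Without primary replicates 2 and 5, the embryo factors numbered 3 higher, at a median of 0.91 in place of 1.62. Glycolysis and pyruvate genes, with 3 higher and 2 lower of 20, and cholesterol synthesis and uptake genes, with 4 higher and 2 lower of 18, were near these shares, and without primary replicates 2 and 5 each had 2 higher and 3 lower. Ldhb, the lactate dehydrogenase subunit of oocytes, had 903, 1987 and 3072 RPM against 3698, 4982 and 12698 RPM without passing the fold, and the hexokinase Hk1 had 17.1, 80.1 and 119 RPM against 0, 1.07 and 3.22 RPM. Idi1, an isomerase of cholesterol synthesis, had no primary read and 6.43, 32.3 and 43.8 RPM in later oocytes.

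**Figure D3:**
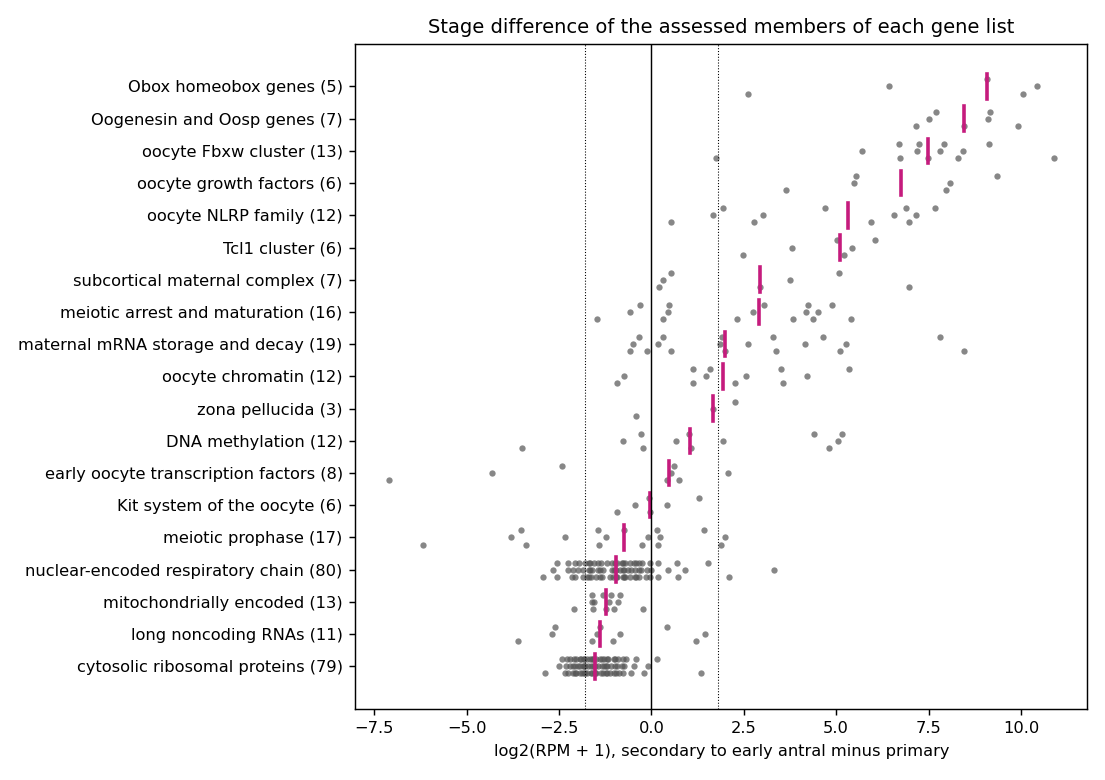
Stage difference in log2 (RPM+1), secondary to early antral minus primary, of every assessed member of each gene list (1 point per gene, bar at the list median, lines at the fold of 1.8 in each direction). Medians run from 9.08 for Obox genes to -1.53 for ribosomal proteins, and the negative medians of ribosomal, respiratory chain, mitochondrially encoded, meiotic prophase and long noncoding genes turn positive by ERCC scaling.

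The genes that the study names for oocyte growth came partly from its own oocytes and partly from an earlier outside set of oocytes. Those chosen on this series are no independent evidence of direction, and the list was not split by source. Of 21, 14 were higher and 7 lower past the fold, and all but Bmp5 were without overlap. Of the 7 lower ones, 6 stayed below 0 by ERCC scaling and 2, Sohlh1 and Syce1, stayed past the fold.

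The genes with the largest differences downwards were not those of a fixed list, except for Sohlh1, Syce1 and Epcam. They were named for the size of that difference. Here and in the lists above, genes near 0 in all later oocytes were assessed only through the primary stage. The direction of such genes, too, follows in part from that filter. Crabp1, a binding protein of retinoic acid, had 199, 462 and 643 RPM in primary oocytes and no read in any of the 9 later ones, at least 1149-fold lower. Ptgds, a prostaglandin D synthase, had 247, 526 and 1024 RPM against 0, 0 and 3.21 RPM, a fold of 2079 (575 to 17172), and its later reads came from replicates 2 and 4. Their differences were -8.69 and -8.67, or -7.12 and -6.92 by ERCC scaling. Arid5b, a DNA-binding protein, had 137, 246 and 338 RPM against 0, 5.96 and 13 RPM.

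Upwards, 4 further genes at the top were no members of the lists above except by resemblance. Gm813 and Gm10436 had no primary read and 730, 1674 and 2208 RPM and 321, 705 and 1079 RPM in the later stage, at least 3710-fold and 1720-fold higher. Omt2a and Omt2b, a near-identical pair whose reads may be shared, had 0 RPM in 4 of 6 primary oocytes, at most 60.8 and 63.6 RPM in primary replicate 3, and 1582, 2078 and 2972 RPM and 1643, 2354 and 3191 RPM in the later stage.

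Transcripts for the protein synthesis and respiration machinery took a smaller share of reads in the later stage. Of 79 assessed cytosolic ribosomal protein genes, 28 were lower past the fold, 27 of these without overlap, and none was higher, at a median of -1.53, which turned to 1.55 by ERCC scaling and stayed at -1.25 by TMM scaling. Their summed level was 76757 to 99992 RPM in primary and 24438 to 42834 RPM in later oocytes. Rpl37a had 2479, 3578 and 4254 RPM against 294, 417 and 753 RPM. Of 80 assessed nuclear-encoded respiratory chain genes, 14 were lower and 2 higher, with a median of -0.97 that became 2.14 by ERCC scaling. The 13 mitochondrially encoded genes summed to 12325 to 21007 RPM and 4497 to 9963 RPM, with a median of -1.24 that became 1.81 by ERCC scaling, and mt-Atp8 alone was past the fold, at -2.10, or 1.01 by ERCC scaling.

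The tables also held rows outside protein-coding genes, and these took a smaller share of all gene reads in the later stage. The share was 27.2 to 31.1%, with a median of 29.3%, in primary and 18.4 to 23%, with a median of 20.5%, in later oocytes, without overlap. Processed pseudogenes made up the largest part, at 13.1 to 16% and 8.65 to 10.7% of gene reads. Mitochondrial rRNA took 1.43 to 2.37% and 0.567 to 1.08%, and annotated miRNA loci 2.34 to 2.74% and 1.70 to 1.83%. Reads on processed pseudogenes can stem from the parent mRNA, many of which encode ribosomal proteins, and their part in the share was not tested. The 2 stages came from different library pools, so that pool and stage cannot be told apart here either.

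Of 4450 assessed rows of this kind, 722 (16.2%) were higher and 514 (11.6%) lower past the fold, and 230 (5.17%) and 229 (5.15%) of them did not overlap. Without primary replicate 6, the counts were 753 and 533. Gm12428, a processed pseudogene at chr3:98821038-98821764, had 1938, 3196 and 4739 RPM against 37.4, 51.4 and 92.2 RPM, a difference of -5.74, or -2.62 by ERCC scaling. Its summed reads were 43.6-fold lower (40.3 to 47.3).

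Malat1, an abundant nuclear RNA, had 2860, 5107 and 10453 RPM against 69.6, 631 and 1858 RPM, and its difference of -3.62 became -0.50 by ERCC scaling. Of 11 assessed named long noncoding RNAs, 3 were lower and none higher, with a median of -1.40 that became 0.21 by ERCC scaling. RP23-423J10.4 had 0, 0.458 and 19.9 RPM against 411, 783 and 1008 RPM. AU016765 had no primary read and 35.4, 241 and 321 RPM, and later replicate 2 was again the lowest. The pseudogene RP24-187P11.4 inside the Fbxw cluster had 0, 1.86 and 6.10 RPM against 359, 505 and 837 RPM.

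Later oocytes also had more detected genes at the median, with overlap between the stages. Protein-coding genes with a read numbered 7885 to 13391 in primary and 9706 to 15332 in later oocytes. After every library was thinned to 168370 gene reads, the depth of the shallowest, the numbers were 6436 to 9869, with a median of 8994, and 9173 to 10753, with a median of 10242. Primary replicate 2 was the lowest of all, and primary replicates 1, 3 and 6 lay inside the later range. Protein-coding reads per ERCC read had medians of 12.7 in the primary and 135 in the later stage. The part of this in detection was not tested.

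The other methods of the series were compared on their own oocytes, which the study places in the same ovary, and in which the stages were again labelled primary and secondary to early antral. In DRaqL-SC3-seq, which held 14 and 30 oocytes and protein-coding rows alone, 2042 genes were higher and 612 lower past the fold. A stage score was taken in each oocyte as the mean log2 (RPM+1) of the former minus that of the latter. The score was -2.04 to -1.48 in the 6 primary and 2.28 to 3.57 in the 9 later oocytes by DRaqL-SMART-Seq v4. It was -1.77 to -0.893 in 7 primary oocytes of SMART-Seq v4 without DRaqL in the title, and 2.18 to 3.02 in 10 later ones, with an eleventh, replicate 9, at -0.033. That oocyte was the one of its stage pooled with the primary libraries, and its noncoding share was 25.0%. After formalin, 5 primary oocytes scored -1.95 to -1.01 and 7 later ones 1.05 to 3.00. Although their titles do not name DRaqL, the extraction text of the 18 SMART-Seq v4 oocytes describes a lysis with quenching, so what separates them from the 15 in preparation is not certain.

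**Figure D4:**
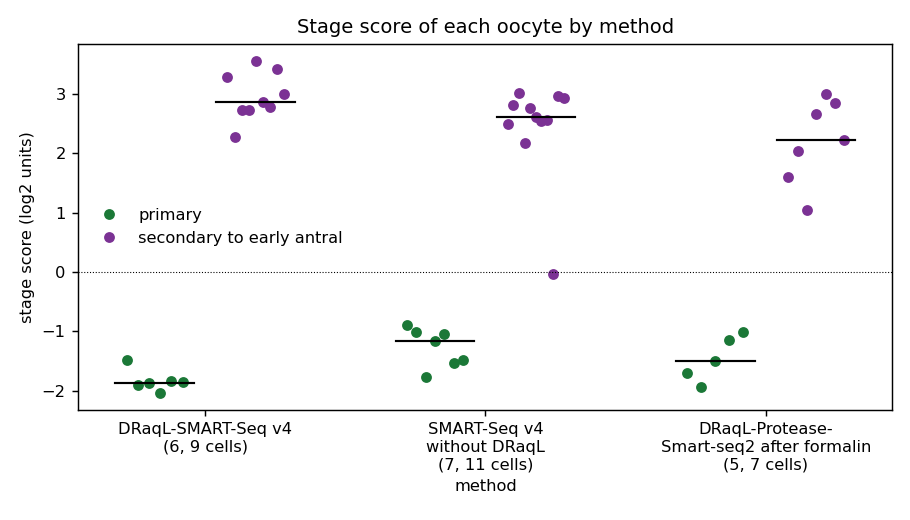
Stage score of each oocyte in log2 units by method, 1 point per oocyte and bars at the medians, from genes past the fold in DRaqL-SC3-seq. Primary and later oocytes lie on opposite sides of 0 in every method but for 1 later oocyte at -0.033 in SMART-Seq v4 without DRaqL in the title.

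Gene by gene, the stage difference by DRaqL-SMART-Seq v4 went with that of the other methods across the 12926 assessed genes, which are not independent replicates, at r = 0.762 and rho = 0.720 for DRaqL-SC3-seq, 0.772 and 0.717 for SMART-Seq v4 without DRaqL in the title, and 0.711 and 0.665 after formalin. Of the 2688 higher genes, 96.2%, 96.1% and 90.2% were also higher by the 3 methods, beside 60.1%, 57.9% and 50.0% of all assessed genes, and 53.7%, 56.9% and 47.3% were past the fold there too. Of the 1254 lower genes, 86.7%, 84.1% and 90.2% were also lower, beside 39.8%, 41.6% and 49.0% of all, and 25.2%, 27% and 41.9% were past the fold. By the 3 methods, 1983, 2171 and 1763 of all 12926 genes were past the fold upwards, and 556, 625 and 1329 downwards. In the other direction, of these 1983 upward and 556 downward genes by DRaqL-SC3-seq, 72.8% and 56.8% were so by DRaqL-SMART-Seq v4. Genes past the fold by DRaqL-SC3-seq but not assessed in the 15 oocytes are left out of these 2 shares. Separation without overlap repeated less often. Of the 840 higher genes without overlap, 9.29%, 38.2% and 35.2% were also without overlap by the 3 methods. Of the 368 lower ones, 0.815%, 20.7% and 20.4% were. The shares of all assessed genes without overlap by each method were not counted, so these figures have no background beside them. The methods differ in their number of oocytes, which enters this rule.

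The marker genes kept their direction in all 4 methods. Obox1 differed by 10.43 here and by 5.55, 10.88 and 5.51 in DRaqL-SC3-seq, SMART-Seq v4 without DRaqL in the title and formalin-fixed sections. Oog1 differed by 9.92 here and by 5.18, 7.52 and 4.51, and Bmp15 by 9.34 and by 4.04, 7.29 and 4.71. Sohlh1 differed by -7.11 here and by -5.70, -5.69 and -5.20. Its stages overlapped in DRaqL-SC3-seq and in SMART-Seq v4 without DRaqL in the title. Some genes did not repeat. Sycp1 differed by -3.40 here and -3.41 after formalin, but by -0.47 and 0.25 in the other 2 methods. Gm23831 differed by -4.87 here and by 0.28 in SMART-Seq v4 without DRaqL in the title, and mt-Atp8, at -2.10 here, differed by 0.11 after formalin.

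**Figure D5:**
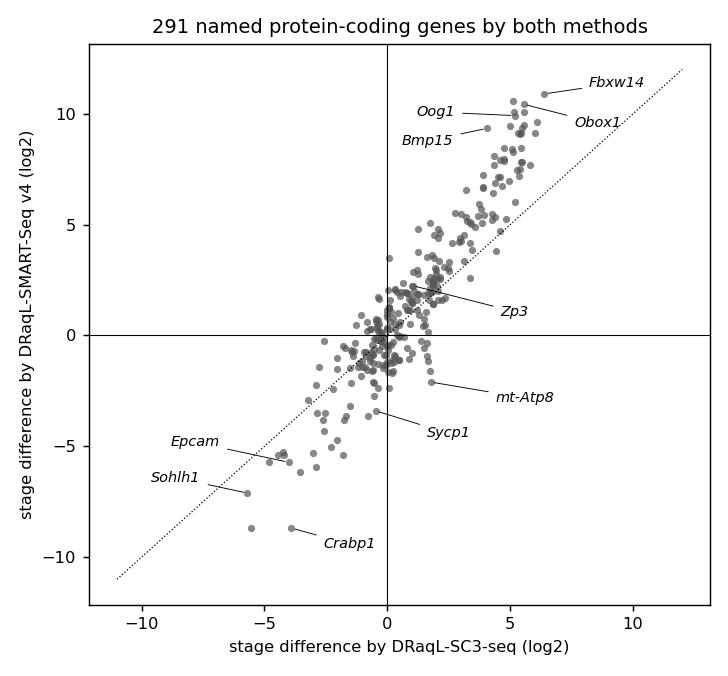
Stage difference of 291 named protein-coding genes in log2 (RPM+1), by DRaqL-SC3-seq on the horizontal and DRaqL-SMART-Seq v4 on the vertical axis, with a dotted line of equal values. The difference has the same sign for 238 genes, and most genes higher in the later stage lie above the line, as do Oog1 (5.18 and 9.92) and Obox1 (5.55 and 10.43).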

How the data were processed

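Whole-number read counts per gene were used as deposited. Per the labels and the study's methods, the authors trimmed reads with fastp 0.20.0 and cutadapt 1.16, aligned them to GRCm38 with HISAT2 2.1.0 and counted them with HTSeq 0.10.0 within 10 kb of annotated 3′ ends. The kit table held 45905 gene rows, 22060 of them protein-coding, and the DRaqL-SC3-seq table lacked the other 23845. A total of 81 sample columns of the tables used were left out. ERCC reads were counted separately by the authors.

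Here, counts were divided by each library's protein-coding total (RPM) and compared as log2 (RPM+1) between stage means, with Python 3.11.15, numpy 2.4.6, pandas 2.3.3, scipy 1.17.1 and matplotlib 3.10.9. Every gene of the table was compared. Each stage is 1 sample, so no p-value was computed. The procedure was tested on simulated data. The oocytes, gene lists and tests were chosen with earlier results of these data known. Named genes are the markers, the genes the study names for oocyte growth, list members past the fold or described with their list, and in each direction the 12 protein-coding and 6 other genes of largest difference without overlap and with a stage mean of at least 4. Gm2042, Omt2a and similar copies fell under this rule. One gene taken by the rule is not reported here. Alternatives were other pseudocounts, library totals over all rows, TMM (R 4.3.3, edgeR 4.0.16), ERCC totals, thinning, no filter, medians, summed reads, a lower fold, and leaving out each oocyte. Gene positions come from an Ensembl-based GRCm38 annotation, which located 340 of 343 named genes.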

Additional observations from a re-analysis of the deposited data

Results flagged for a closer look

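Oocytes standing apart within their stage were sought by Dixon's ratio, the gap of the extreme oocyte to its nearest neighbour divided by the range, in 124 groups from 51 genes and 11 library measures. Of these, 23 exceeded the critical value for their size. In 6 of the 23 every other oocyte of the stage was at 0, which gives a ratio of 1.00 to any read, and these are given as values alone. Of the other 118 groups 17 exceeded it, and chance flags about 1 in 20. Gene values are log2 (RPM+1).

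Primary replicate 1 was the deepest of its stage, with 3278505 protein-coding reads against 467352 to 902898 (ratio 0.845), and had the highest stage score, -1.48 against -2.04 to -1.84 (0.638). It alone of the primary oocytes had reads of Bmp15 (3.65), Bmp5 (1.50), Gm1965 (0.687) and Gm13023 (0.384). The part of its depth in these reads was not tested.

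Later replicate 2 stood apart most often. It was lowest on the first principal component, 46.5 against 75.9 to 105 (0.501), and highest in summed oocyte markers, 32616 RPM against 16113 to 22854 (0.592). It was lowest for Gm13023 (9.02, ratio 0.603), Gm10436 (8.33, 0.524), AU016765 (5.18, 0.577) and Bmp5 (0, 0.697), and highest for Ptgds (2.08, 0.654) and Sh3gl3 (3.79, 0.724).

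Later replicate 1, the shallowest library, was highest for Wipf3 (5.26, ratio 0.541) and RP24-187P11.4 (9.71, 0.500) and had no read of Sycp1 (0, 0.611). Primary replicate 5 alone held haemoglobin reads beyond 0.610 RPM, at 1688 RPM (1.00). Primary replicate 2 was lowest for Gdf9 (1.65 against 6.76 to 9.24, 0.673). Primary replicate 4 was highest for Bglap3 (10.3, 0.627), Oog4 (2.64) and RP24-333I1.3 (1.21), and primary replicate 3 for Oog3 (6.65, 0.799).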

How the results depend on the processing

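No paired analysis was possible because the results come from no test and each stage counts as 1 sample. By plain ERCC totals, 6 of the 43 lower named genes turned positive, at 0.21 to 1.18 (Figla, Bax, Gapdh, Mlh3, Snhg3 and mt-Atp8), and none of the 127 higher ones turned negative. Under the following alternatives, with ERCC values taken relative to the median gene, none of these 170 genes changed sign, and 170 stayed past the fold at a pseudocount of 0.1, 169 by TMM and by totals over all rows, 162 after thinning, 156 by ERCC totals, 154 by stage medians, 132 at a pseudocount of 10, and 141 under every omission of an oocyte or set of oocytes.

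The counts moved more. A pseudocount of 10 gave 960 higher and 427 lower protein-coding genes, and among other rows 200 higher (151 without overlap) and 159 lower (137). A pseudocount of 0.1 gave 856 lower other rows and a median protein-coding gene of 0.431. Dividing by ERCC reads gave 9798 higher protein-coding genes (1438 without overlap) and 86 lower (3), 3283 higher other rows (376) and 29 lower (0), with the median gene at 2.739. TMM left 235 protein-coding and 141 other lower genes without overlap, and thinning left 149 higher other rows without overlap. Summed reads turned the balance, with 1893 higher and 1999 lower protein-coding genes and 665 higher and 890 lower other rows. A difference above 1 gave 4357 higher and 2945 lower protein-coding genes (559 lower without overlap), and 1120 higher and 1393 lower other rows (439 lower without overlap), and a stage score gap of 3.39 in place of 4.80. Beyond the construction of each alternative, the cause was not tested.

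Chosen after seeing the data, leaving out later replicates 1, 2 and 7 gave 1512 higher protein-coding genes and 443 other rows without overlap, and leaving out primary replicates 2 and 5 gave 748 lower protein-coding genes without overlap. Leaving out each oocyte gave 2352 to 2947 higher protein-coding genes (840 to 1041 without overlap) and 1194 to 1484 lower (361 to 502), 690 to 762 higher other rows (231 to 296) and 502 to 566 lower (217 to 265), with a median gene of 0.053 to 0.299. Reads per library limit low genes, since 3 reads equal 22.4 RPM in later replicate 1 and 0.915 RPM in primary replicate 1.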

Other observations

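Some genes past the fold had no read at all in 1 of the stages, and these were assessed only through the other stage. Among protein-coding genes, 259 of the 2688 higher ones had no read in any primary oocyte and 34 of the 1254 lower ones had none in any later oocyte, and among other rows the numbers were 185 of 722 and 27 of 514. The primary libraries held 6760133 protein-coding reads together and the later ones 9485075, so that a gene without reads lay below 0.444 and 0.316 RPM, the limits that 3 reads allow.

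The kinds of rows outside protein-coding genes leaned in different directions. Of 617 assessed lincRNA genes, 189 were higher and 64 lower past the fold, at a median difference of 0.41. Of 1868 processed pseudogenes, 176 were higher and 221 lower, 68 and 142 of them without overlap, at a median of -0.56, and of 162 unprocessed pseudogenes 42 were higher and 22 lower. These medians are on the scale of protein-coding reads, and dividing by ERCC reads moved the median of all such rows from -0.33 to 1.99.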
